A study of Mus musculus with 14 samples.

Results

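Collagens are the main structural proteins of skin, and fibroblasts, the cells that build connective tissue, make most of them. A collagen molecule is a triple helix of 3 chains, each chain the product of a gene named Col, the collagen type and the chain number, so that Col5a3 encodes a chain of type V collagen. Chains are hydroxylated and assembled in the endoplasmic reticulum, secreted, trimmed at their ends and crosslinked. Fibrillar types form the fibres of dermis and tendon, type IV forms the sheets of basement membranes, type VI forms beaded filaments around cells, and fibril-associated types coat the fibres.

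The collagen chain genes were all rows of the deposited tables whose symbol had the form Col, digits, a, digits, kept where the mean normalised count in the table was 10 or more. A normalised count is the number of reads of a gene divided by the size factor of the library. Of 43472 genes, 44 had such a symbol, and 32 of them met the level in both tables. These were 11 fibrillar, 4 basement membrane, 4 beaded filament and 4 fibril-associated genes, and 9 genes of other collagens. Of the remaining symbols, Col9a2 (mean 10.7) and Col9a3 (14.4) met the level only in the table of replicate 1, Col22a1 (10.2) and Col4a3 (48.7) only in the table of replicates 2 to 4, and 8 met it in neither. Nearest to the level in the second table were Col22a1 and Col6a4 (11.2) just above it and Col9a3 (9.61) just below it.

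Primary fibroblasts were grown from the tail tips of C57BL/6 mice after collagenase digestion, wounded by a scratch, and left untreated or treated with AMG. AMG (autologous micrograft) is a cell-depleted extract of minced mouse skin, filtered and added to the growth medium at a dilution of 1:10. Untreated and AMG-treated cells were collected at 1, 5, 12 and 24 h in replicate 1 and at 5 h in replicates 2, 3 and 4, which gave 14 libraries with 12545537 to 34696529 reads assigned to genes. No further allele or agent was named for any group, the animals' age and the number used are not given in the sources used here, and the cells were unsorted outgrowths of tail tissue.

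The fibroblast markers Vim and Fn1 were abundant in all libraries (95941 to 144884 and 37582 to 366049 normalised counts), whereas the keratinocyte genes Krt5, Krt14 and Krt1 did not exceed 3.48 and the T cell gene Cd3e was at 0. Of the other keratinocyte genes, Dsp reached 698, Krt10 156 and Trp63 41.6. The 6 keratinocyte markers together summed to 155 to 310 in the untreated and 90.2 to 149 in the treated libraries of replicates 2 to 4, without overlap. Most of this was Dsp, at 240, 131 and 169 untreated and 91.6, 61.5 and 67.8 treated in replicates 2, 3 and 4. Trp63 was also lower with AMG in these pairs. Krt10 went the other way, at 41.8, 15.3 and 30.3 untreated and 52.2, 28.7 and 36.1 treated. The 9 fibroblast markers summed to 342100 to 562645 in the untreated and 292674 to 474166 in the treated libraries of replicates 2 to 4. Vim, Fn1 and S100a4 made up most of these sums, and Fap did not exceed 90.2 in any library. Thy1 was at 1339, 14712 and 1068 and Lum at 6374, 333 and 1539 in untreated replicates 2, 3 and 4, and Lum did not exceed 181 in replicate 1. The 6 leukocyte markers summed to 89.1 to 1153 untreated and 127 to 1046 treated in replicates 2 to 4, with Emr1 and Itgam mostly in replicate 4. Pericyte and smooth muscle markers summed to 15854 to 24126 untreated and 14388 to 22995 treated in replicates 2 to 4. In replicate 1 they summed to 8786 to 20908 and 2549 to 19876, lowest in both groups at 24 h, where Actg2 was at 7633 untreated and 1915 treated. The endothelial and Schwann cell lists did not exceed 252 and 144. Of the 4 adipocyte markers nearly all was Fabp4, at 1163, 294 and 259 untreated and 2067, 338 and 419 treated in replicates 2, 3 and 4. In replicate 1 at 5 h Fabp4 was at 1393 untreated and 751 treated. The 5 osteoblast markers summed to 663 to 829 untreated and 375 to 583 treated in replicates 2 to 4, also without overlap. Nearly all of this was Runx2, a transcription factor of bone cells, at 828, 659 and 713 untreated and 370, 543 and 360 treated in replicates 2, 3 and 4, whereas Bglap was at 0 in these libraries. In replicate 1 the osteoblast sums overlapped (472 to 1379 untreated and 441 to 1132 treated), and Runx2 at 5 h was at 456 untreated and 564 treated. The part of these marker differences in the collagen results was not tested. In replicate 1 the libraries Untreated 5h and AMG-treated 1h stood apart. Ribosomal protein genes took 7.0% and 5.1% of their reads, against 2.27% to 3.47% elsewhere. Within replicates 2 to 4 that share was also higher with AMG, 3.15% to 3.47% against 2.27% to 2.82% untreated. Collagen chain genes took 1.37% of the reads in Untreated 5h replicate 1 and 3.07% to 3.24% in the other untreated libraries of that replicate. Every ratio of replicate 1 at 1 h or 5 h below rests on those libraries. In bulk RNA, fewer cells of a kind and less RNA per cell cannot be told apart.

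Promoter windows were examined because several chain genes moved together, and because Col4a1 and Col4a2, whose products assemble into the common type IV molecule, share a single promoter region between them. RefSeq windows of 300 bases (250 before the start to 50 after it, GRCm38.p6) were found for 27 of the 32 genes, of which 2 (Col18a1 and Col6a2) had more than 1 window. The starts of Col4a1 (minus strand, 11312826) and Col4a2 (plus strand, 11312805) on chromosome 8 lie so that the first 22 bases of both transcripts overlap, and the windows share the 78 bases chr8:11312777-11312854. Shown with it are Col5a3, the gene with the clearest rise, Col1a2, an abundant fibrillar gene that was lower with AMG, and Col6a1, the only one of the 27 genes with a match to the AP-1 motif. Capitals mark matches on either strand to the AP-1 site (TGANTCA), the CCAAT box (CCAAT), the TATA box (TATAAA), the GC box (GGGCGG) or the NF-kB consensus site, and each line runs 5′ to 3′ on the strand of the gene.
Col4a2, chr8:11312555-11312854, plus strand: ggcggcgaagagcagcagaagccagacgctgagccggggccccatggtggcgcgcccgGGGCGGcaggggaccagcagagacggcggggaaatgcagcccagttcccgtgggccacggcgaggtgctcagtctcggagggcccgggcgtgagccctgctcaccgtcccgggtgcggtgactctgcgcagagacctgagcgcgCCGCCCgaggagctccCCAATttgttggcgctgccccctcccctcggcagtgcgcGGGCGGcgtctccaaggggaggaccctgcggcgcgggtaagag
Col5a3, chr9:20815018-20815317, minus strand: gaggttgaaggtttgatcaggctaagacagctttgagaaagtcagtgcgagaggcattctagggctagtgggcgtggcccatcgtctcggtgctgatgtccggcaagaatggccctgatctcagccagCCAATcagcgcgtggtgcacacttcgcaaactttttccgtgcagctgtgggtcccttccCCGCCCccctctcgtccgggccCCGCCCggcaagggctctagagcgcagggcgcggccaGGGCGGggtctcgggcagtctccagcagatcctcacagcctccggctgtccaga
Col1a2, chr6:4505368-4505667, plus strand: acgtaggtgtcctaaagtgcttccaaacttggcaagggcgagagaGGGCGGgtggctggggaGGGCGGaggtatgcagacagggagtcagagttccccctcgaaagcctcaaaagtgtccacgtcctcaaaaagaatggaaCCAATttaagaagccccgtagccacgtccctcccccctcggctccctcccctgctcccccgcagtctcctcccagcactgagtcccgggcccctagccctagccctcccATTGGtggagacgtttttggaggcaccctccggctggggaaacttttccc
Col6a1, chr10:76725995-76726294, minus strand: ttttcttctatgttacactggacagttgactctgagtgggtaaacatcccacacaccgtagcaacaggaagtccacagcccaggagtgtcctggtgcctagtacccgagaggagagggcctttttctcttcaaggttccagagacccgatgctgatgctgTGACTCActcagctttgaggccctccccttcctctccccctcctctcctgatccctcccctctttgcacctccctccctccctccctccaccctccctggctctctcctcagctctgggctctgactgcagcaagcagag
The Col4a2 window held GC boxes at -192, -48 and 7 and a CCAAT box at -32, counted with the start base as 0. The Col5a3 window held a CCAAT box at -122 and GC boxes at -63, -41 and -4, and the Col1a2 window GC boxes at -205 and -188 and CCAAT matches at -109 and 0. A gene was counted as holding a motif where any of its windows did. The GC box was present in 66.7% of the 27 genes and in 38.2% of all 27025 genes listed. The CCAAT box stood in 40.7% against 41.1%, the TATA box in 14.8% against 15.7%, the AP-1 site in 3.7% against 8.97% (Col6a1, at -90) and the NF-kB site in 3.7% against 1.89% (Col17a1). These are matches of letters in a window, and no binding was measured. The 27 genes had passed a level filter and the 27025 listed genes had not, so these shares compare unlike sets. The members without a window were Col1a1, Col2a1, Col5a2, Col12a1 and Col14a1.

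The main comparison asked how AMG changed the chain genes at 5 h, in 3 treated and 3 untreated libraries. A single gene, Col5a3, passed as higher and 0 passed as lower in the limma test (Benjamini-Hochberg adjusted p under 0.05 over 13096 genes), where 0.97% of all genes tested were higher and 0.267% lower. At an unadjusted p under 0.05 there were 4 higher and 7 lower members (11.9% and 11.1% of all genes), edgeR called 1 higher and 0 lower (0.817% and 0.214%), and DESeq2 3 higher and 5 lower (6.68% and 4.53% of the 12794 genes with an adjusted p). The untreated libraries differed widely among themselves, and same-numbered libraries deviated together. With the replicate number as a block, 7 members rose (Col5a3, Col27a1, Col11a2, Col20a1, Col23a1, Col18a1 and Col7a1) and 17 fell, where 17.9% of all genes were higher and 19.3% lower. The part of the ribosomal protein share, which was higher in the 3 treated libraries, in these differences was not tested.

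The median log2 fold change of the 32 members was -0.51 on the log2(normalised count + 1) scale, against -0.02 over all genes tested. By structure it was -0.54 for fibrillar, -0.65 for basement membrane, -0.35 for beaded filament, -0.27 for fibril-associated and -0.26 for other collagens. The fibril-associated value ran from -0.52 to 0.69 when single libraries were left out (0.69 without Untreated replicate 3, 0.48 without AMG-treated replicate 4 and 0.18 without AMG-treated replicate 2), and that of beaded filament was -0.0033 with edgeR on all 4 replicates. Blocked by replicate, 3 fibrillar genes rose and 8 fell, 4 of 4 basement membrane genes fell, 2 of 4 beaded filament genes fell, 1 fibril-associated gene rose and 1 fell, and 3 of the others rose and 2 fell. In replicates 2, 3 and 4 together, 22 members were lower in all 3 pairs and 8 higher (all genes 34.5% and 31.9%), and with replicate 1 at 5 h, 3 were lower and 8 higher in all 4 pairs (15.9% and 15.7%). In 8 members the 3 treated values lay below the 3 untreated values and in 4 above them (13.6% and 15.1% of all genes).

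**Figure D1:**
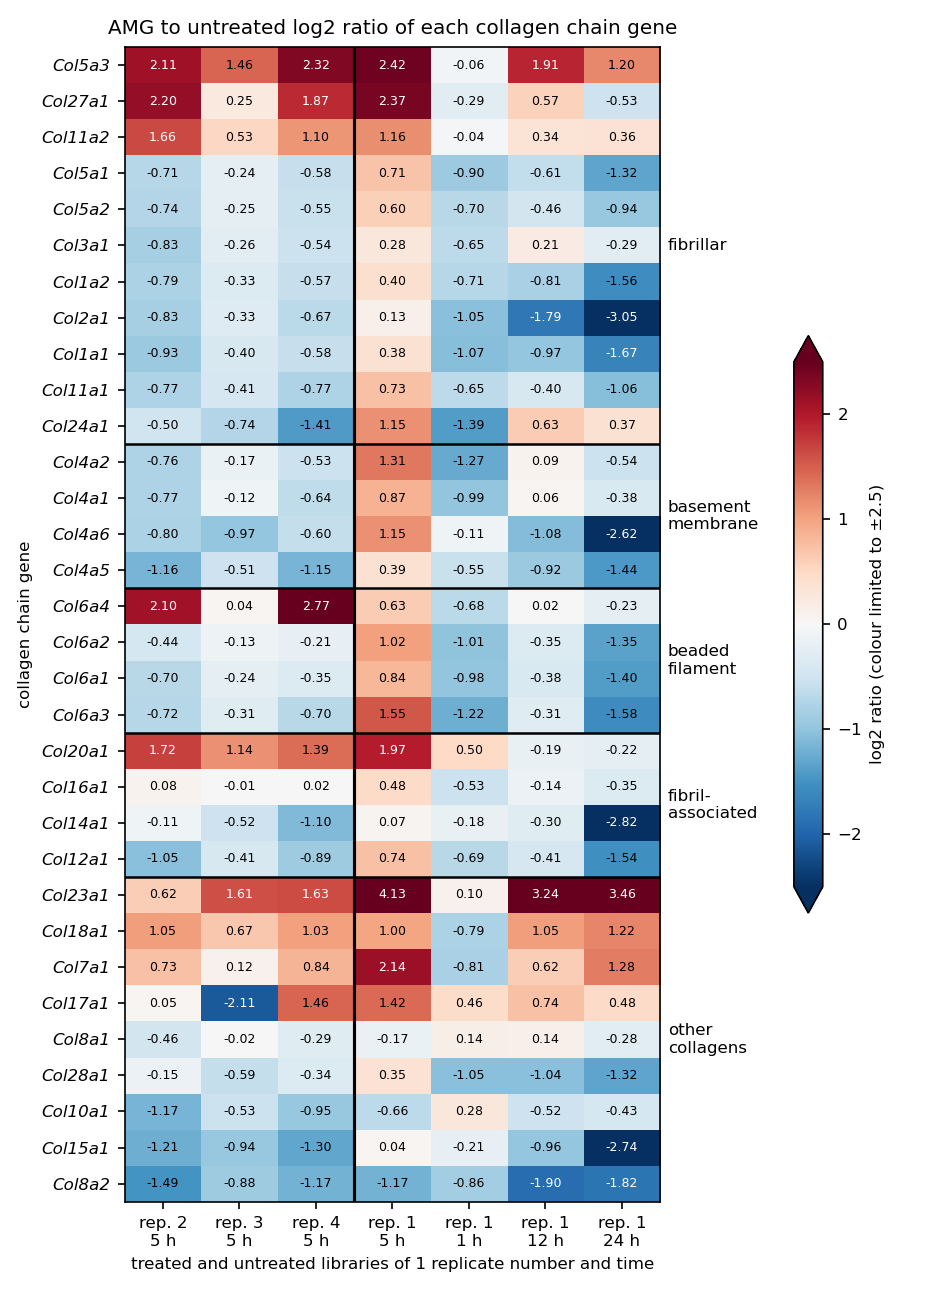
Log2 ratio of AMG-treated to untreated for the 32 collagen chain genes (rows, by structural class) in the 7 pairs of libraries with the same replicate number and time (columns), red higher and blue lower with AMG. Replicates 2 to 4 at 5 h were lower for 22 members in all 3 pairs (34.5% of all genes), whereas replicate 1 at 5 h was higher for 29 of 32 (6725 of 13498 genes). The untreated library of that replicate 1 pair stood apart, and its member median of 0.74 was 0.10 after length correction.

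Across all tested genes, transcript length moved with these ratios. The members are long (median 5989 bases, against 3120 for the genes tested), and 86.3% of the tested genes are shorter than that median. Across all tested genes the Spearman correlation of the log2 ratio with length was -0.37, -0.22 and -0.44 in replicates 2, 3 and 4. It was -0.52, 0.50, 0.19 and -0.24 in replicate 1 at 1, 5, 12 and 24 h. Among the 32 members the correlation was 0.13, 0.09 and -0.06 in replicates 2, 3 and 4, and -0.16, 0.43, 0.22 and 0.08 in replicate 1 at 1, 5, 12 and 24 h. Genes are not independent replicates, and all share the library. After the trend with length was taken out of each library, the median of the members at 5 h was -0.24. With the block, 9 members were then higher and 10 lower (17.8% and 15.6% of the genes with a length). All 7 blocked rises and 10 of the 17 blocked falls were among them, Col16a1 and Col6a4 being the additional higher genes.

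**Figure D2:**
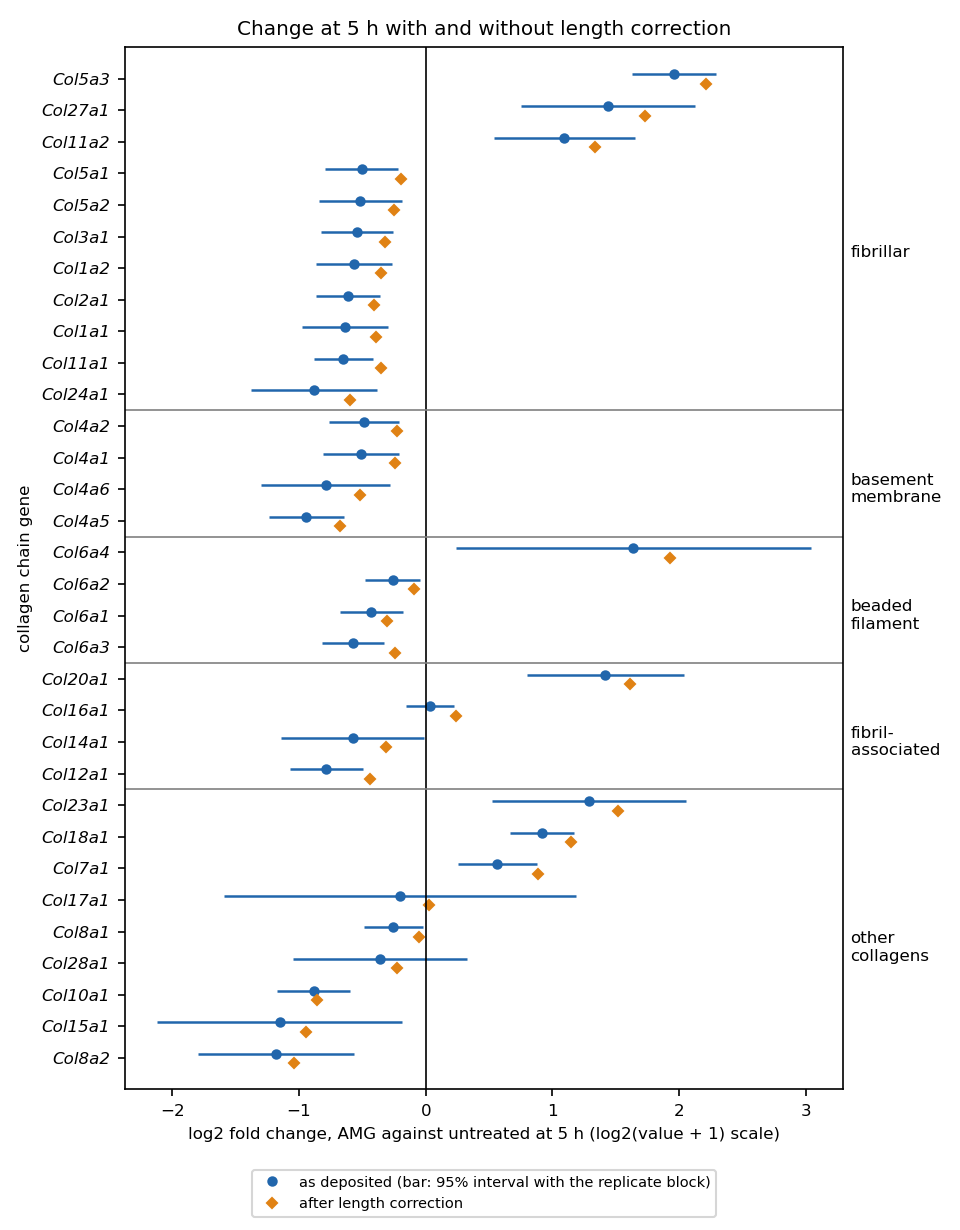
Log2 fold change at 5 h (replicates 2 to 4) of each collagen chain gene as deposited (blue, bars are 95% intervals with the replicate block) and after the length correction (orange). The correction moved the median from -0.51 to -0.24 and left the 7 genes that rose with the block above 0.

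The fibrillar genes held most of the collagen reads. The 5 members with the highest counts were Col1a1, Col5a2, Col1a2, Col5a1 and Col3a1, which made up 70.0% to 81.4% of all collagen normalised counts in the 6 libraries. Per kilobase of transcript, Col1a1 was the highest (mean of 32950 normalised counts per kb), followed by Col5a2 (24773), Col1a2 (19382), Col5a1 (9159) and Col3a1 (7437). The ranges of Col1a1 and Col5a2 overlapped in both groups, as did those of Col5a2 and Col1a2, whereas the 3 values of Col1a2 lay above those of Col5a1.

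Col5a3 (chr9:20770050-20815067, mm10), a chain found in a minor form of type V collagen, stood at 4839, 7257 and 4837 normalised counts in untreated replicates 2, 3 and 4 and at 20901, 19914 and 24095 with AMG. All treated values were above all untreated values, and the means were 5644 ± 1397 and 21637 ± 2185 (SD, n = 3). This was 1.96 on the log2 scale with an SE of 0.19 (adjusted p = 0.0190, limma), or 3.89-fold, and it was higher in 3 of 3 pairs. With the block the adjusted p was 3.72e-05, with the length correction and block 4.56e-05, and with edgeR on all 4 replicates 0.00633. The unblocked call was lost when any of 4 libraries was left out (without Untreated replicate 2 adjusted p = 0.0928, without Untreated replicate 4 0.0867, without AMG-treated replicate 2 0.124 and without AMG-treated replicate 4 0.107), while the log2 fold change remained between 1.86 and 1.98 in these fits.

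Of the other fibrillar genes that rose with the block, Col27a1 and Col11a2 encode chains of cartilage collagens and were at low counts. Col27a1 was at 130, 365 and 124 in the untreated and 599, 433 and 455 in the treated libraries. The treated values lay above the untreated ones, but the untreated library of replicate 3 was near its treated partner. Col11a2 was at 68.2, 76.6 and 45.4 untreated and at 218, 111 and 98.3 treated, again with no overlap. The log2 fold changes were 1.44 (adjusted p = 0.123, with the block 0.00692) for Col27a1 and 1.09 (0.158, with the block 0.00893) for Col11a2.

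The genes of type I collagen, the main fibre of skin, were lower in all 3 pairs. Col1a1 (chr11:94936224-94953042) was at 265494, 171809.5 and 278572 untreated and at 139523, 130389.9 and 186580.3 with AMG. Replicate 4 was highest in both groups, and its treated value exceeded the untreated value of replicate 3, so the groups overlapped. The means were 238625 ± 58232 and 152164 ± 30153 (SD, n = 3), a difference of -0.63 on the log2 scale with an SE of 0.29 (adjusted p = 0.245, with the block 0.0109 and an SE of 0.15). Col1a2, its partner chain, was at 111454, 110810.8 and 147903 untreated and at 64414, 88000.5 and 99352 treated, with no overlap. Its log2 fold change was -0.57 (adjusted p = 0.229, with the block 0.0103). After the length correction the blocked values were -0.39 (0.0417) for Col1a1 and -0.35 (0.0352) for Col1a2.

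Col3a1, the chain of the thin fibres of early wounds, was at 56788, 38619.9 and 52484 untreated and at 31997, 32174 and 36210.1 with AMG. The treated values were close to each other and all below the untreated ones, and the log2 fold change of -0.54 had an SE of 0.19 (adjusted p = 0.17, with the block 0.00971). Col5a1, which helps to start type I fibrils, was at 94715, 75118 and 101969 untreated and at 58083, 63733 and 68339 treated. Col5a2, the other common type V chain, was at 211966, 133706 and 237882 untreated and at 126802, 112225 and 162129 treated. Treated Col5a1 lay below all untreated values, while Col5a2 overlapped. Their log2 fold changes were close, -0.51 (adjusted p = 0.191, with the block 0.0144) and -0.52 (0.336, with the block 0.0212), and neither passed once length was corrected (0.176 and 0.137 with the block).

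**Figure D3:**
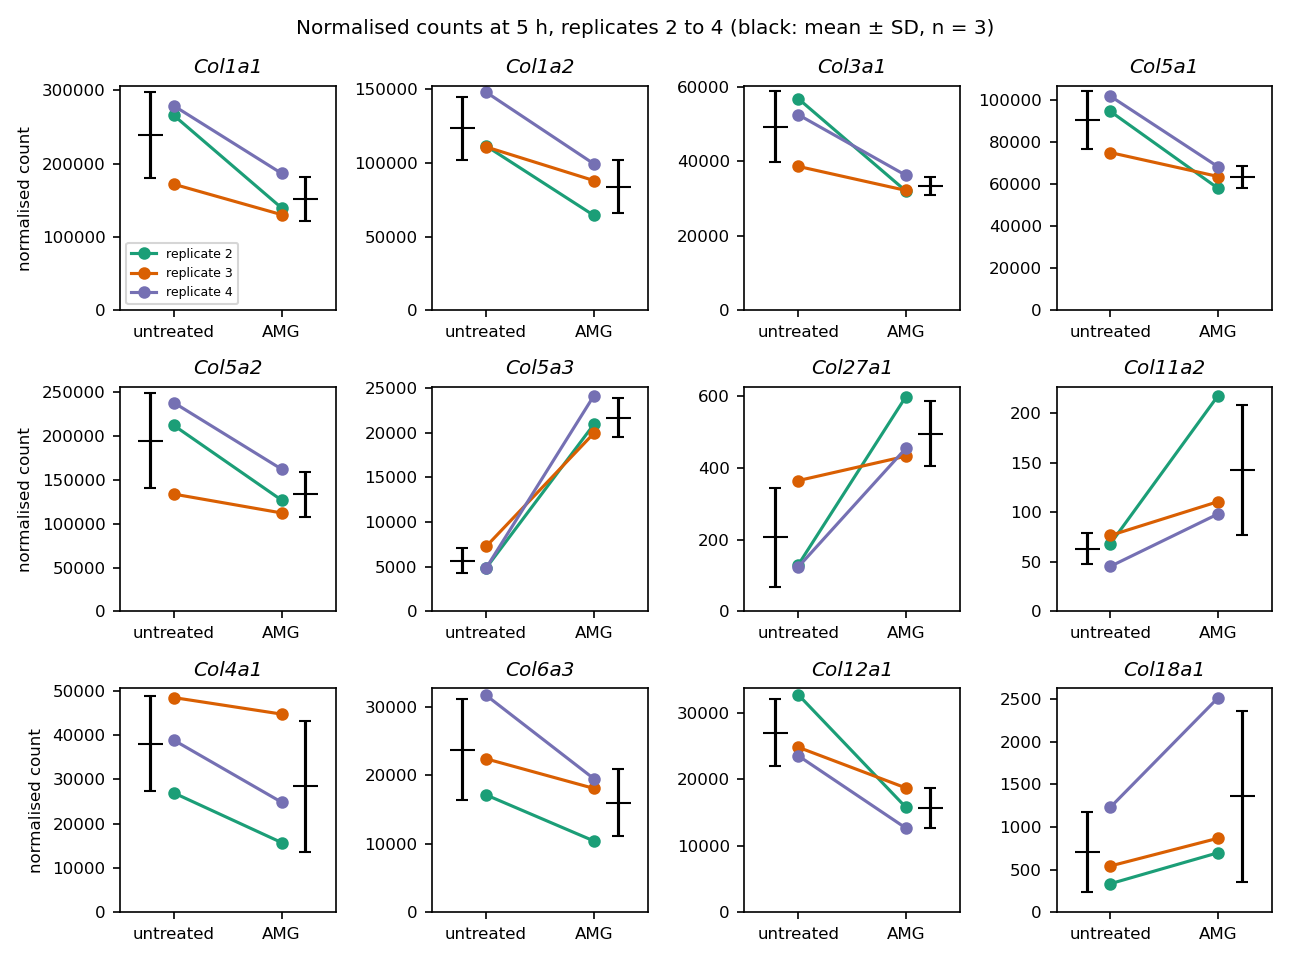
Normalised counts (y axis, linear from 0) of 12 collagen chain genes in untreated and AMG-treated libraries at 5 h, with a line joining the libraries of replicates 2, 3 and 4 and black bars for mean ± SD (n = 3). Col5a3 went from a mean of 5644 to 21637, and the Col1a1 lines ran down in each replicate from different starting levels.

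Col2a1 and Col11a1 differed widely between untreated libraries. Col2a1, the main collagen of cartilage, was at 21940 in untreated replicate 2 but at 252 in replicate 3 and 1102 in replicate 4, an 87.1-fold range. With AMG it was at 12336, 200 and 691. Each pair was lower with AMG (log2 ratios -0.83, -0.33 and -0.67), with adjusted p = 0.879 unblocked and 0.00368 with the block. Col11a1, which joins type II fibrils, was at 3429, 581 and 4389 untreated and at 2015, 436 and 2573 treated, a log2 fold change of -0.65 (0.710, with the block 0.00197). Without the block their direction rested on which library was in the fit: without Untreated replicate 2 the log2 fold change of Col2a1 was 1.18, without AMG-treated replicate 3 it was 0.68, and that of Col11a1 was 0.14. Beside Col2a1, the chondrocyte gene Comp was at 3638, 444 and 2591 and Hapln1 at 943, 311 and 1767 in untreated replicates 2, 3 and 4. Sox9, on the same marker list, varied less, at 312, 206 and 257. Acan did not exceed 34.6 and Matn1 was at 0 in these libraries. The 7 chondrocyte markers summed to 976 to 4935 in the untreated and 729 to 3941 in the treated libraries of replicates 2 to 4, and their part in the result was not tested. Col24a1, a minor fibrillar chain, was at 178, 169.9 and 134 untreated and at 126, 101.7 and 49.7 treated, with no overlap (log2 fold change -0.88, adjusted p = 0.212, with the block 0.0132).

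All 4 basement membrane genes that met the level in both tables fell with the block. Col4a3, which met it only in replicates 2 to 4, did not pass in limma (log2 fold change 0.46, with the block adjusted p = 0.371). Col4a1 was at 26938, 48448 and 38832 untreated and at 15746, 44721 and 24847 with AMG. Col4a2 was at 20321, 38373 and 29525 untreated and at 11958, 34135 and 20478 treated. For both, the libraries of replicate 3 were the highest in each group and differed least within the pair, and the groups overlapped. Their log2 fold changes were -0.51 (adjusted p = 0.471, with the block 0.0161) and -0.49 (0.499, with the block 0.0139), and both lost the blocked call with the length correction (0.0990 and 0.103). The 2 genes share exonic sequence on opposite strands, and the strand setting of the counting is not given in the sources used here. Exons of Col5a1, Col10a1, Col15a1 and Col6a4 also overlap other genes on the opposite strand, and those of Col3a1, Col7a1 and Col20a1 overlap Gm47302, Mir711 and BX649560.1 on the same strand, which leaves their counts uncertain.

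Col4a5 and Col4a6 are neighbours on the X chromosome and encode chains of another type IV molecule. Col4a5 was at 2034, 3239 and 2250 untreated and at 910, 2271 and 1011 with AMG. The treated library of replicate 3 exceeded 2 of the untreated ones. Its log2 fold change of -0.94 (adjusted p = 0.191, with the block 0.00109) was the largest fall of its class, and with length correction and block it was -0.68 (0.00138). Col4a6 was at 84.7, 141 and 60.6 untreated and at 48.3, 71.3 and 39.5 treated, a log2 fold change of -0.79 (0.274, with the block 0.0229, with length correction and block 0.110).

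Of the type VI genes, which form beaded filaments linking cells to the fibres, Col6a1 was at 22607, 17434 and 19519 untreated and at 13916, 14755 and 15351 with AMG, with no overlap. Col6a3 was at 17126, 22387 and 31643 untreated and at 10416, 18075 and 19494 treated, with overlap. The log2 fold changes were -0.43 (adjusted p = 0.156, with the block 0.0149) and -0.57 (0.313, with the block 0.00436). With length correction and block Col6a1 was at 0.0320 and Col6a3, which has the longest transcript of the 4, at 0.0513. Col6a2 ranged from 13165 to 17560 untreated and from 12008 to 12944 treated (log2 fold change -0.26, with the block adjusted p = 0.0607). Col6a4 was near the detection floor of 3 reads in untreated replicates 2 and 4, at 2.20 and 1.62, and at 16.7 in replicate 3, whereas the treated libraries were at 12.7 to 17.2.

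Among fibril-associated genes, Col12a1, abundant in tendon and dermis, was at 32695, 24800.2 and 23527 untreated and at 15765, 18687 and 12654 with AMG. The treated values lay below the untreated ones. On the log2 scale the difference was -0.79 with an SE of 0.21 (adjusted p = 0.107, with the block 0.00213). It has the longest transcript of the 32 members (11511 bases), and with length correction and block the value was -0.44 (0.0108). Col20a1 was at 34.1, 18.1 and 26.5 untreated and at 115, 41.0 and 71.2 treated, a log2 fold change of 1.42 (0.146, with the block 0.00477). Col16a1 had means of 4448 ± 1023 untreated and 4520 ± 900 treated (SD, n = 3) and a log2 fold change of 0.03 (95% interval -0.48 to 0.54). Col14a1 was at 2090.0 in untreated replicate 3 but at 22 and 15.7 in the others, the widest range of all members.

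The other collagens moved both ways. Col18a1, a basement membrane proteoglycan whose end fragment is endostatin, was at 337, 544 and 1233 untreated and at 699.8, 869.8 and 2516 with AMG. The untreated libraries differed among themselves by more than each differed from its treated partner, and all 3 pairs were higher with AMG, with log2 ratios of 1.05, 0.67 and 1.03. Without the block the log2 fold change of 0.92 had an SE of 0.61 (adjusted p = 0.394), and with the block an SE of 0.11 (0.000575). Together with Col5a3 and Col20a1 it was also called by edgeR over all 4 replicates (adjusted p = 0.0210), where 2.49% of all genes were higher and 1.29% lower. Col7a1, the anchoring fibril chain that ties the epidermal basement membrane to the dermis, was at 540.1, 3949 and 435 untreated and at 898, 4281 and 782 treated. Its log2 ratios were 0.73, 0.12 and 0.84 (with the block adjusted p = 0.0125), and the unblocked value of 0.56 turned to -0.02 without Untreated replicate 4 and to -0.22 without AMG-treated replicate 3. Col23a1, a transmembrane collagen, was at 15.4, 32.0 and 12.4 untreated and at 24.2, 100.02 and 40.7 treated (log2 fold change 1.29, with the block adjusted p = 0.0169).

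On the lower side, Col10a1, a network-forming chain known from hypertrophic cartilage, was at 1893, 1125 and 1328 untreated and at 844, 777 and 686 with AMG. The treated values were below the untreated ones and close together (log2 fold change -0.88 with an SE of 0.21, adjusted p = 0.0915, with the block 0.00121). Its value hardly depended on length (-0.86 after correction). Col8a2, a chain of the short-chain networks of vessels and cornea, was at 106, 25.1 and 108 untreated and at 36.9, 13.1 and 47.4 treated, a log2 fold change of -1.18 (0.352, with the block 0.00957). Among the members these were the only 2 lower calls of edgeR over all 4 replicates (adjusted p = 0.0469 and 0.0497). Col15a1, at 7.03 to 30.8 untreated and 2.26 to 14.8 treated, was lower in all 3 pairs but passed in neither fit (with the block adjusted p = 0.0613). Col8a1, Col17a1 and Col28a1 had log2 fold changes of -0.26, -0.20 and -0.36 and passed in neither fit.

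Differences between untreated libraries were often larger than the change with AMG. In 22 of 32 members the untreated range over replicates 2 to 4 exceeded the log2 fold change, and in 7 it was over 4-fold (median over the members 1.82-fold). Col5a3 (1.5-fold), Col12a1 (1.39-fold) and Col10a1 (1.68-fold) were among the 10 whose change was larger than this range.

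The chain make-up of the collagen types was compared within each library, where scaling between libraries has no part. The trend with length was not taken out of these values, and the chains differ in transcript length (8406, 6625 and 6119 bases for Col5a1, Col5a2 and Col5a3). With AMG the Col5a3 part of type V transcripts was larger. Per kilobase, Col5a3 made up 1.62% to 7.91% (median 3.67%) of the 3 type V genes in 7 untreated libraries and 10.8% to 21.8% (median 12.2%) in 7 treated libraries. It was higher in 7 of 7 pairs, and the 2 groups did not overlap. The pairs at 1, 12 and 24 h were all of replicate 1, so the 7 pairs are not independent replicates. At 1 h the share was 7.91% untreated and 12.2% with AMG, although Col5a3 itself was not higher (log2 ratio -0.06). In that pair Col5a1 (-0.90) and Col5a2 (-0.70) were lower. At 5 h the shares were 7.44%, 1.80%, 3.91% and 1.62% in untreated replicates 1 to 4 and 21.8%, 11.6%, 11.7% and 10.8% with AMG, so that the increase was present in the replicate whose untreated library stood apart.

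**Figure D4:**
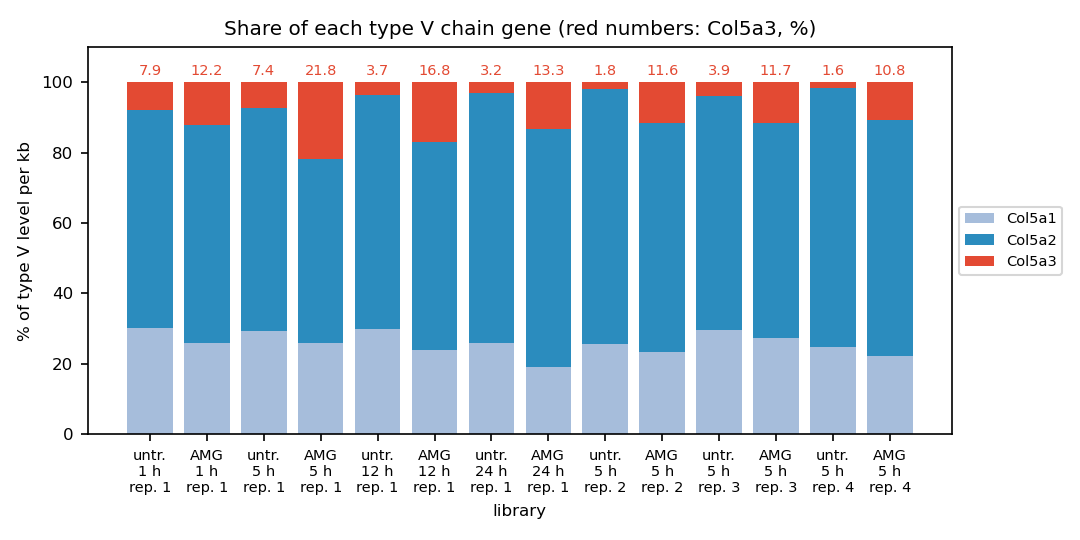
Share of Col5a1, Col5a2 and Col5a3 in the type V level (normalised counts per kilobase, % on the y axis) in the 14 libraries, with the Col5a3 share in red numbers. The Col5a3 share was 1.62% to 7.91% in untreated and 10.8% to 21.8% in AMG-treated libraries.

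The ratio of Col1a1 to Col1a2 per kilobase was lower with AMG in 7 of 7 pairs, but the groups overlapped nearly fully (1.40 to 2.34 untreated, 1.34 to 2.32 treated). Col3a1 to Col1a1 was higher with AMG in 6 of 7 pairs. At 5 h it was 0.201 to 0.328 untreated and 0.207 to 0.306 treated, and in replicate 1 at 24 h it was 0.451 untreated and 1.17 treated. Col4a1 to Col4a2 was higher with AMG in 3 of 7 pairs, and the Col6a3 share of Col6a1, Col6a2 and Col6a3 in 2 of 7. Those 2 pairs were replicate 1 at 5 h and 12 h, where the log2 ratio over all genes rose with length (correlation 0.50 and 0.19). The Col6a3 transcript has 10106 bases and that of Col6a1 4100, and the part of length in this share was not tested.

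Over time only replicate 1 was available, with 1 library per group and time, so its ratios have no replicate check. For collection at 1, 5, 12 and 24 h, the median log2 ratio of the 32 members was -0.69, 0.74, -0.30 and -0.74. After length correction it was -0.20, 0.10, -0.40 and -0.61. At 1 h, 0 members were over 1.5-fold higher and 19 over 1.5-fold lower (all genes 22.6% and 25.1%). At 5 h there were 20 and 2 (25.6% and 25.4%), at 12 h 6 and 9 (11.8% and 13.6%), and at 24 h 4 and 16 (12.8% and 15.3%). In the untreated library at 5 h, 23 of 32 members were at their lowest of the 4 untreated times, and 20 were at their highest at 1 h. The same counts over all genes were not made, so these are not read as a result about the members. That 5 h library is the one in which ribosomal protein genes took 7.0% of the reads.

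The type I genes of replicate 1 were lower with AMG at 1, 12 and 24 h. Col1a1 was at 150551, 81645.5, 134964 and 115254 normalised counts in untreated cells at 1, 5, 12 and 24 h and at 71733, 106127, 68843 and 36187 with AMG. The log2 ratios were -1.07, 0.38, -0.97 and -1.67. Col3a1 had log2 ratios of -0.65, 0.28, 0.21 and -0.29. Its direction was that of Col1a1 at 1, 5 and 24 h but not at 12 h. At 24 h it was at 48780.1 untreated against 39824 treated, a smaller fall than that of Col1a1. Col2a1 was at 988 untreated and 119 treated at 24 h, and its log2 ratios were -1.05, 0.13, -1.79 and -3.05. At 24 h the lowest ratios after Col2a1 were those of Col14a1 (-2.82), Col15a1 (-2.74) and Col4a6 (-2.62).

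A few genes were higher with AMG from 5 h on. Col5a3 was at 14107, 5784, 5393 and 4603 untreated and at 13530, 31029.8, 20205 and 10557 with AMG at 1, 5, 12 and 24 h, so that AMG cells peaked at 5 h while untreated cells were highest at 1 h. Col23a1 was at 90.5, 42.6, 101.7 and 55.9 untreated and at 97.4, 761, 969 and 625 treated, the largest ratios of any member at 5, 12 and 24 h (log2 4.13, 3.24 and 3.46, counting intervals 3.599 to 4.78, 3.00 to 3.52 and 3.13 to 3.85). Col18a1 had log2 ratios of -0.79, 1.00, 1.05 and 1.22, and Col7a1 of -0.81, 2.14, 0.62 and 1.28. Col8a2 was lower at all 4 times (-0.86, -1.18, -1.90 and -1.82). The counting intervals are exact 95% intervals from the reads and do not cover the spread between replicates.

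**Figure D5:**
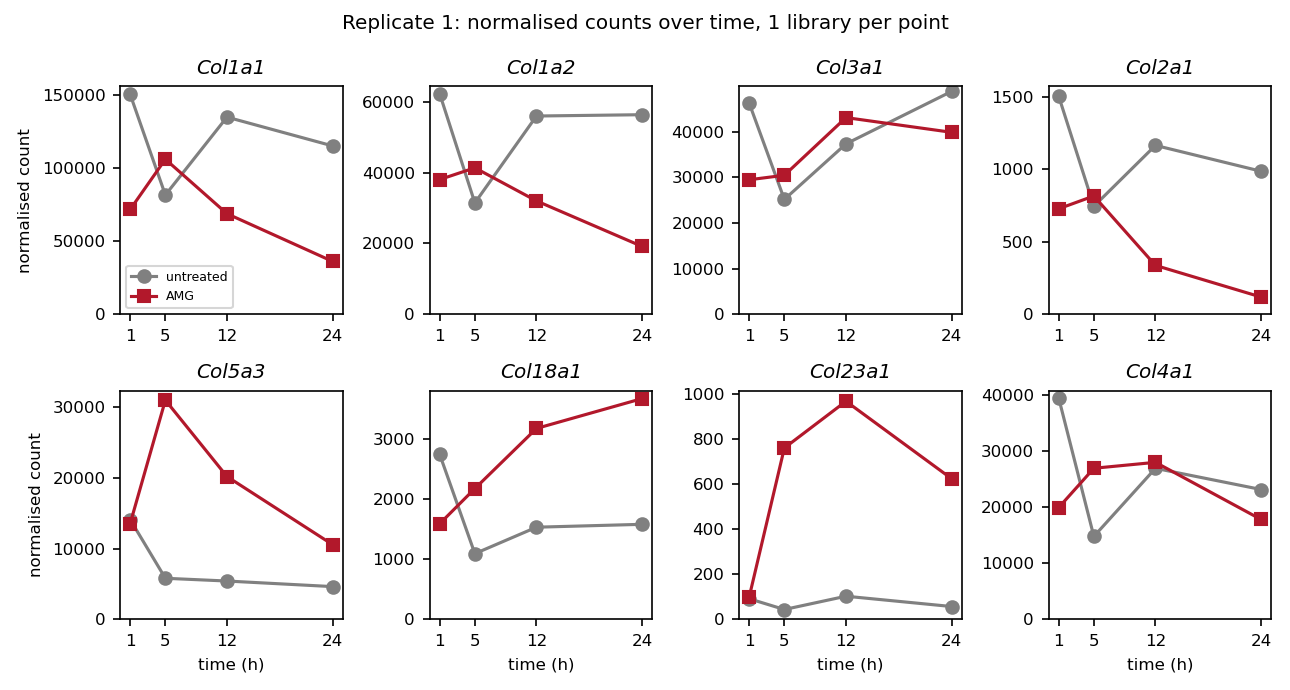
Normalised counts (y axis, linear from 0) of 8 collagen chain genes in replicate 1 at 1, 5, 12 and 24 h, untreated (grey) and AMG-treated (red), 1 library per point. Col1a1 with AMG fell to 36187 at 24 h against 115254 untreated, while Col5a3 with AMG reached 31029.8 at 5 h against 5784 untreated.

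The other genes of collagen making, binding and breakdown were taken from 7 lists of 70 genes, of which 66 were tested at 5 h. In limma 3 were higher and 0 lower (0.97% and 0.267% of all genes), and all 3 were proteases (Mmp9, Mmp1b and Mmp13). With the block 10 were higher and 19 lower, where 17.9% and 19.3% of all genes were. With length correction and block there were 13 and 14 (17.8% and 15.6% of the genes with a length). List medians ran from -0.32 for the receptors to 2.26 for the proteases. Of 13 genes of hydroxylation and glycosylation, 1 was higher and 1 lower with the block: P4ha2 (log2 fold change 0.35, adjusted p = 0.0287) and P4ha3 (-0.59, 0.0058), both proline hydroxylase subunits. Of 11 chaperone and export genes, 2 were lower, the coat proteins Sec24d (-0.47, 0.0198) and Sec23a (-0.38, 0.0208), while Serpinh1, the collagen chaperone, was at -0.06 (0.707). Of 6 genes of propeptide cleavage, Adamts14 was higher (0.89, 0.00282) and Tll1 lower (-0.66, 0.0455). With length correction and block Tll1 no longer passed (0.108), whereas Pcolce, which enhances propeptide cleavage, passed as lower (0.00752, against 0.0676 with the block alone). Of 5 lysyl oxidases, which crosslink collagen, Loxl4 (-0.86, 0.0066) and Loxl3 (-0.51, 0.0119) were lower, and with length correction and block 1 was higher and 2 lower. In the replicate 1 pair at 5 h, whose untreated library stood apart, most of these falls were not seen. The log2 ratio there was 0.78 for P4ha3, 0.50 for Sec24d, 1.12 for Tll1, 0.56 for Loxl4 and 0.26 for Loxl3. It was -0.16 for Sec23a and -0.39 for Pcolce, and 0.42 for P4ha2 and 2.08 for Adamts14.

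Of 8 collagen receptor and uptake genes, 1 was higher and 5 lower with the block (17.9% and 19.3% of all genes). With length correction and block 1 was higher and 2 lower (17.8% and 15.6% of the genes with a length). The same shares stand beside the protease and regulator counts below. The calls lost were those of Ddr1 (0.0859), Ddr2 (0.912) and Mrc2 (0.0524). Itga2, an integrin subunit that binds type I collagen, was at 13.2, 6.96 and 24.9 untreated and at 42.0, 47.6 and 119 with AMG (log2 fold change 2.14, adjusted p = 0.00181 with the block). The collagen-binding subunits Itga11 (-0.89, 0.000746) and Itga1 (-0.81, 0.000755) were lower, and Itga10 was at 0.31 (0.378). In the replicate 1 pair at 5 h the receptor falls were not seen. The log2 ratio there was 1.46 for Itga11, 0.19 for Itga1, 0.47 for Ddr1, 0.89 for Ddr2 and 0.34 for Mrc2. It was 3.51 for Itga2 and 1.80 for Itga10. Of 7 collagen-cleaving proteases, 4 were higher and 1 lower with the block. Mmp9, a gelatinase, was at 12.1, 15.3 and 29.8 untreated and at 1340, 200.03 and 2102 treated (log2 fold change 5.47, adjusted p = 0.0414 without the block). The interstitial collagenase gene Mmp1b was at 2.20, 2.78 and 6.49 untreated and at 98.0, 50.8 and 140.1 treated (adjusted p = 0.0240 without the block), and Mmp1a was at 1.10, 0 and 0 untreated and at 64.9, 4.10 and 63.3 treated. Of 16 regulator genes, 3 were higher and 7 lower with the block, and 5 and 5 with length correction and block. The largest changes were in Tgfb3 (-1.16), Tgfb1 (1.05) and Prrx1 (-0.73), 2 of them ligands of the pathway best known for raising collagen transcription. In the replicate 1 pair at 5 h the log2 ratios of Tgfb3, Tgfb1 and Prrx1 were -0.34, 1.24 and 0.58.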

How the data were processed

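RNA of 14 libraries was sequenced (TruSeq stranded mRNA, single-end reads of 50 bases). The authors aligned reads to mm10 with TopHat2 2.0.13, counted them per gene with HTSeq 0.5.3p3 and divided by DESeq size factors; the annotation release and strand setting are not given in the sources used here. The deposited values are thus a normalised signal per gene, scaled apart in a table of 8 libraries (replicate 1) and of 6 (replicates 2 to 4). Whole reads were recovered for 100% of values within a tolerance of 0.1.

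Groups came from the sample titles. The main test was limma 3.58.1 in R 4.3.3 (lmFit, eBayes with trend) on log2(value + 1) for 13096 genes with a mean of at least 10, with no fold threshold. A pseudocount of 1 understates changes of low genes. Ratios of replicate 1 were described without p-values. Same-numbered libraries deviated together (r = 0.65, 0.76 and 0.70 across genes, against -0.59 to 0.12 for other numbers), so a replicate block is given beside the main fit. What libraries of the same number share is not stated, so p-values measure the spread between these libraries, which may be technical in part.

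For the length correction, each library's log2 deviation from the gene mean was smoothed on log2 transcript length (loess, span 0.3; GENCODE, 98.8% of tested genes) and subtracted. edgeR 4.0.16 and DESeq2 1.42.0 used the recovered reads. Other alternatives were pseudocounts of 0.1 and 10, no filter, a mean of at least 50 and leaving out each library. Intervals and the floor of 3 reads cover counting error only.

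Members and lists were chosen with earlier results of these data known. Every library's value is given for members that passed with or without the block and for the 5 most abundant. Of each pathway list, up to 3 passing genes by size of change are named. Serpinh1, Mmp13, Pcolce, Itga10, Ddr1, Ddr2 and Mrc2 are named outside this rule, with their values known.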

Additional observations from a re-analysis of the deposited data

Results flagged for a closer look

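Among the log2 ratios of the 4 pairs at 5 h, 1 of 34 groups of values searched held a pair far from the others. The Col18a1 ratio of replicate 3 was 0.68, whereas the other 3 pairs lay between 1.00 and 1.05. Chance alone gives such a value in about 1 in 20 groups.

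Several genes moved in the same direction in all 4 pairs at 5 h and in the opposite direction in the single pair of replicate 1 at another time. The difference was not tested, since those times have 1 library per group. At 1 h the log2 ratio was -0.037 for Col11a2, -0.79 for Col18a1, -0.29 for Col27a1, -0.0603 for Col5a3, -0.68 for Col6a4 and -0.81 for Col7a1, all of which were higher with AMG in the 4 pairs at 5 h. Col10a1 and Col8a1, lower in the 4 pairs at 5 h, were at 0.28 and 0.14 at 1 h, and Col8a1 was at 0.14 at 12 h. At 12 h Col20a1 was at -0.19. At 24 h Col20a1 was at -0.22, Col27a1 at -0.53 and Col6a4 at -0.23. Several of these ratios are within 0.2 of no change.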

How the results depend on the processing

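The count of members that passed as higher was 1 in the main fit, 7 with the replicate block in limma and 7 in edgeR, 3 with DESeq2, 3 with edgeR on all 4 replicates and 9 with length correction and block. It was 0 to 2 when single libraries were left out. The count of lower members was 0, and 17 and 18 with the block in limma and edgeR, 5 with DESeq2, 2 with edgeR on all 4 replicates, 10 with length correction and block, and 0 to 2 without single libraries. The median of all members (-0.51) was -0.24 with length correction, with or without the block, -0.19 with edgeR on all 4 replicates and -0.49 to -0.38 without single libraries. Class medians were, for basement membrane, -0.25 with edgeR on all 4 replicates, -0.38 with length correction and -0.96 to -0.39 without single libraries; for beaded filament -0.0033 with edgeR on all 4 replicates; for fibril-associated -0.0388 with length correction and -0.52 to 0.69 without single libraries; and for other collagens -0.0538 with length correction and -0.54 to -0.0284 without single libraries. The replicate 1 medians with length correction were -0.20 at 1 h and 0.10 at 5 h. Direction reversed for Col11a1 (0.14 without AMG-treated replicate 3), Col2a1 (1.18 without Untreated replicate 2, 0.68 without AMG-treated replicate 3) and Col7a1 (-0.0174 without Untreated replicate 4, -0.22 without AMG-treated replicate 3); without single libraries they ranged from -1.56 to 0.14, from -2.29 to 1.18 and from -0.22 to 1.57. Over the 24 named members, 367 alternative values kept direction and side of the threshold, 77 passed where the main fit did not, 4 lost the call (Col5a3) and 5 reversed. Causes were not tested beyond the length correction itself. Genes near the floor of 3 reads, such as Col6a4, are limited by depth.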
